A study of Homo sapiens with 8 samples.

Results

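The nuclear receptor genes, leaving out those of SF1 and DAX1, were examined for open chromatin in NCI-H295R cells. The group holds 43 of the 19974 protein-coding genes used. A peak belonged to a receptor gene when its summit lay inside the gene, or within 100 kb of its ends with no other protein-coding gene nearer. By that rule the receptor genes held 182 of 41086 peaks in the EZH2i list, 211 of 47161 in the CBPi list, 231 of 51095 in the FSK list and 260 of 61016 in the vehicle list. No peak was shared by 2 receptor genes. The NR4A genes (NR4A1, NR4A2 and NR4A3) and the steroid hormone receptor genes (NR3C1, NR3C2, PGR, ESR1 and ESR2) are described first and the other 35 genes after them.

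Nuclear receptors are transcription factors with a zinc-finger DNA-binding domain and, in most members, a pocket for a small lipid-soluble ligand such as a steroid, retinoid, thyroid hormone, fatty acid or oxysterol. They bind DNA alone, as pairs of the same receptor, or with a retinoid X receptor, and recruit coactivators with histone acetyltransferase activity or corepressors with deacetylases. In the adrenal cortex the NR4A receptors are immediate early genes, switched on by ACTH and angiotensin II, that act on genes of steroid synthesis. The glucocorticoid and mineralocorticoid receptors bind the hormones the gland makes.

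NCI-H295R is an established human adrenocortical carcinoma line that makes steroid hormones. ATAC-seq marks open chromatin by the sites where the transposase Tn5 inserts adapters. The 8 libraries made up 4 groups with 2 libraries each, given as biological replicates in the labels. EZH2i cells had 62 µM EPZ-6438, an inhibitor of the Polycomb methyltransferase EZH2, for 96 h. CBPi cells had 26 µM PRI-724, labelled as an inhibitor of the coactivator CBP, also for 96 h. The labels give both concentrations as IC-50 doses. FSK cells spent 48 h in vehicle and then 48 h in 10 µM forskolin, which activates adenylyl cyclase and raises cAMP. Vehicle cells had DMSO for 96 h. All groups grew in DMEM/F12 medium with Nu serum.

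Each group had 1 deposited peak list made from its 2 libraries, so no value below has a spread between replicates and no test between groups could be made. Read depth is unknown. A vehicle peak was called lost where no peak of the treated list covered at least 1 bp of it, and a treated-list peak was called gained where it covered no vehicle peak. Both words describe lists, since a peak just under the caller's threshold is missing from a list. The 3 comparisons share the vehicle list. Intervals in brackets are Wilson 95% intervals; they take each peak as a separate draw and hold counting error alone. The area of a peak is the authors' own signal value and is compared only within a list. The expected loss of a gene or family is the loss over all vehicle peaks of like area, taken in 20 area bins. A start-site peak overlaps the 1 kb on either side of an annotated start. Of 10 adrenocortical marker genes, 7 had a start-site peak in the vehicle list, among them NR5A1, STAR, CYP11A1 and CYP17A1, and CYP21A2, CYP11B1 and HSD3B2 had none. Of 17 markers of immune, endothelial, liver, muscle, glial, epithelial and chromaffin cells, SPI1 and TP63 had one. TP63 lost its peak in all 3 treated lists, and CD3E had one in the EZH2i and CBPi lists only; any part of these in the results was not tested. MC2R, the ACTH receptor gene, lost its start-site peak in the EZH2i and CBPi lists, and CYP21A2, which has a near-identical pseudogene and is therefore uncertain, gained one in the FSK list.

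Across the family, the EZH2i list lacked 104 of the 260 receptor peaks of the vehicle list, which is 40.00% (34.23 to 46.06), against 37.7% of all vehicle peaks. The CBPi list lacked 76, or 29.23% (24.04 to 35.03), against 30.6% of all vehicle peaks. The FSK list also lacked 76, against 30.2% of all vehicle peaks. Peak areas alone predicted 36.64%, 29.86% and 29.49% for the 3 lists in that order, and each interval contained its prediction. Receptor genes as a whole therefore lost peaks at about the rate of the genome. Of the 41 receptor genes with a vehicle peak, 15 kept all of theirs in the EZH2i list, 18 in the CBPi list and 16 in the FSK list. NR1I3 (the receptor CAR) and NR0B2 (SHP) had no assigned peak in any list.

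Gained peaks were unevenly spread among the receptor genes. They made up 24 of 182 receptor peaks in the EZH2i list (13.19%, 9.024 to 18.87), against 6.98% of all EZH2i peaks. In the CBPi list they made up 30 of 211 (14.22%, 10.14 to 19.57), against 10.7% of all CBPi peaks, and in the FSK list 39 of 231 (16.88%, 12.60 to 22.25), against 15.9% of all FSK peaks. RXRA alone held 18 of the 24 gained in the EZH2i list. Without RXRA, a comparison chosen after its values were seen, the gained share was 3.846% in the EZH2i list (6 of 156), 12.69% in the CBPi list and 14.88% in the FSK list. Gains touched 5 genes in the EZH2i list, against 19 genes each in the CBPi and FSK lists.

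**Figure D1:**
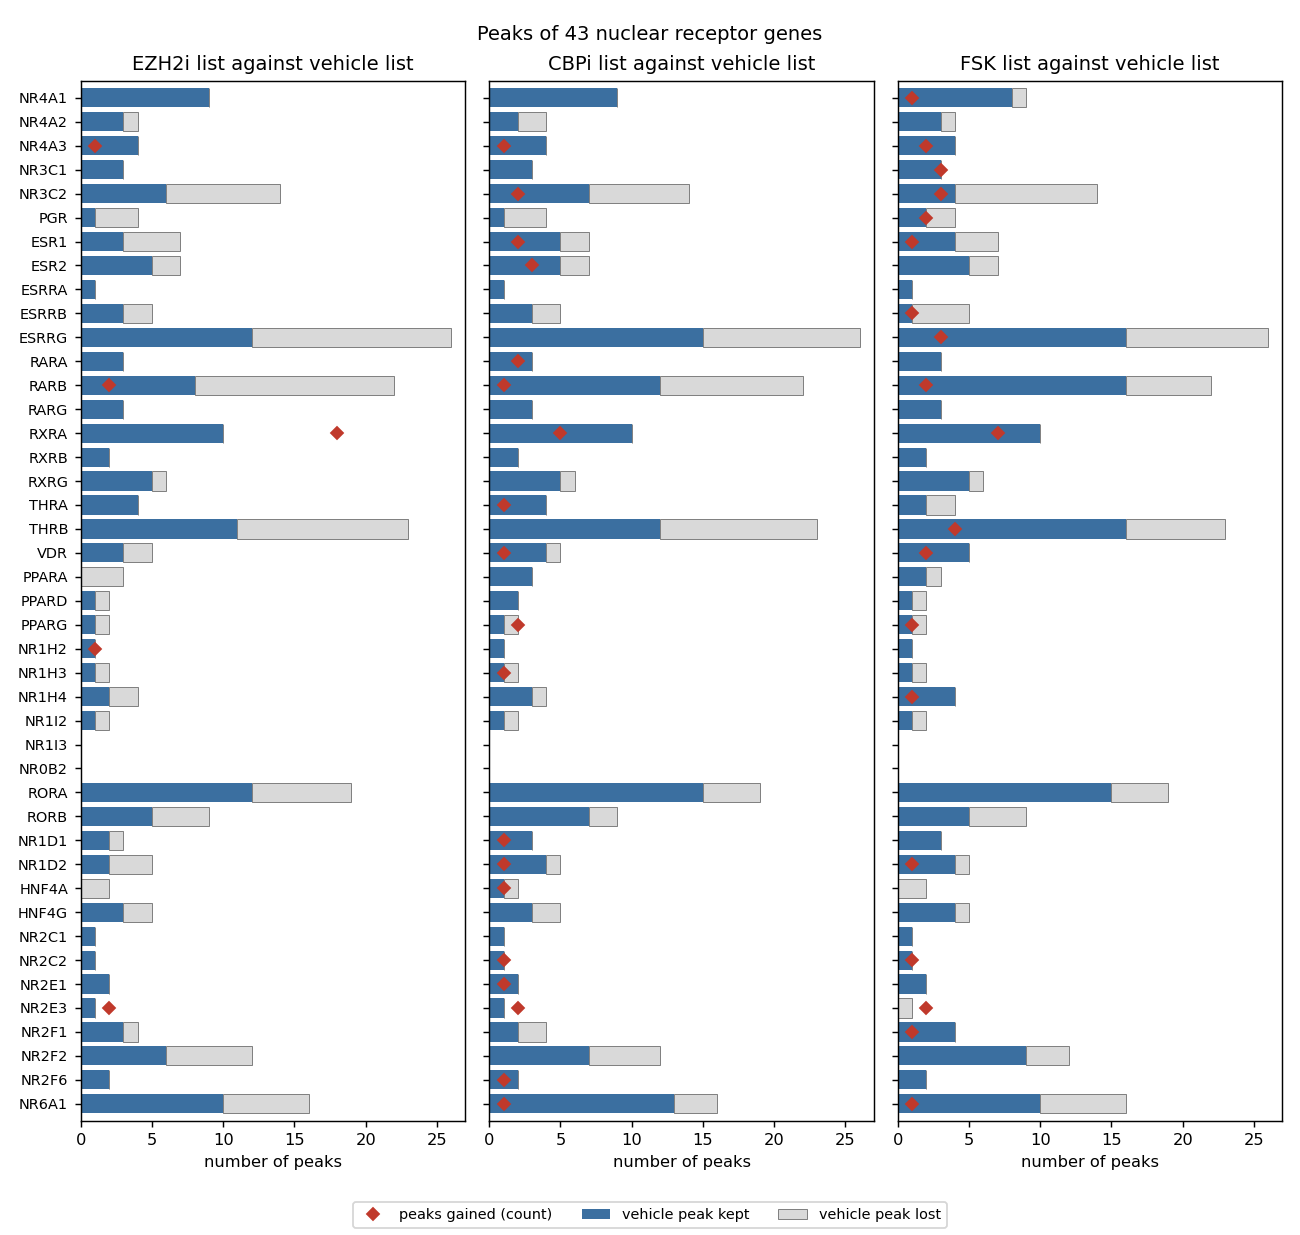
Number of vehicle peaks kept (blue) and lost (grey) at each of the 43 receptor genes in the EZH2i, CBPi and FSK comparisons, with the number of peaks gained as red diamonds. The longest bars belong to ESRRG (26 vehicle peaks), THRB (23) and RARB (22), and the diamond farthest to the right is RXRA in the EZH2i list, with 18 gained peaks.

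Losses differed by the place and the area of a peak. Of 47 vehicle peaks at start sites, 3 were lost in the EZH2i list, 1 in the CBPi list and 2 in the FSK list. Of 165 inside genes and away from the start sites, 80, 57 and 60 were lost in those lists, and of 48 outside genes 21, 18 and 14. All vehicle peaks showed the same split. Within 1 kb of a gene end or start, the EZH2i list lacked 10.34% of receptor peaks and 10.78% of all peaks, the CBPi list 6.897% and 5.936%, and the FSK list 5.172% and 10.17%. Elsewhere the EZH2i list lacked 48.51% of receptor peaks and 47.84% of all peaks, the CBPi list 35.64% and 39.92%, and the FSK list 36.14% and 37.83%. Among the 70 receptor peaks in the top 25% of vehicle peak areas, the EZH2i list lacked 1 and the other lists none. Among the 62 in the bottom 25%, 53 were missing from the EZH2i list, 40 from the CBPi list and 45 from the FSK list. All vehicle peaks had the same gradient, with 0.4065% of the top 25% and 82.31% of the bottom 25% missing from the EZH2i list. Receptor genes held 3.33 vehicle peaks per 100 kb of gene, against 2.33 over all protein-coding genes, and 15.00% of their vehicle peaks were among the top 10% of areas. Long genes held more peaks: Spearman's rho between gene length and vehicle peaks was 0.67 over the 43 genes, given as a description.

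**Figure D2:**
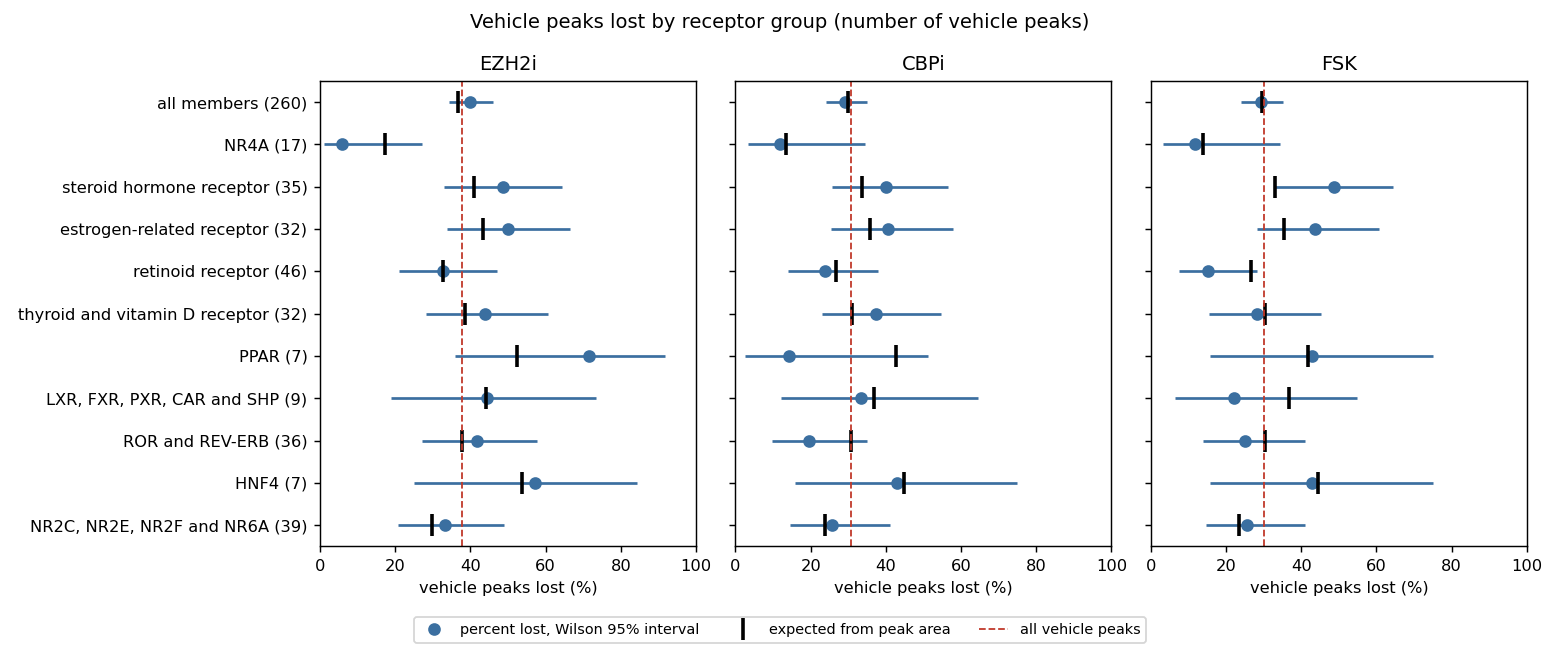
Percent of vehicle peaks lost in each receptor family (blue point, Wilson 95% interval), with the percent expected from peak area (black bar) and that of all vehicle peaks (red dashed line), in the EZH2i, CBPi and FSK lists. The interval of each family contains its expected value in each panel. NR4A lies lowest for EZH2i at 5.882%, and the steroid hormone receptors reach 48.57% for EZH2i and FSK.

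The NR4A promoters are printed first because these genes answer cAMP, the pathway that forskolin opens. Sequences are from RefSeq (GRCh38.p14), 250 bases before to 50 after an annotated start, read 5′ to 3′ on the gene's strand. Capitals mark TGACG or its reverse complement CGTCA, the half-element of the cAMP response element, and would mark AGGTCA or TGACCT, the nuclear receptor half-site, had it been found. The NR4A1 promoter is chr12:52037465-52037764 on the + strand and the NR4A3 promoter chr9:99821635-99821934, also on the + strand. NR4A2 is not printed.
NR4A1: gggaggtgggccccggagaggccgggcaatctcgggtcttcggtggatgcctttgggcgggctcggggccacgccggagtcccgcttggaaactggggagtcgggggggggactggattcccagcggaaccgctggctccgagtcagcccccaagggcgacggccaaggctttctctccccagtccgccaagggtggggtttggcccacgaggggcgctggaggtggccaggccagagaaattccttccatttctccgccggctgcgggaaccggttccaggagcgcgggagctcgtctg
NR4A3: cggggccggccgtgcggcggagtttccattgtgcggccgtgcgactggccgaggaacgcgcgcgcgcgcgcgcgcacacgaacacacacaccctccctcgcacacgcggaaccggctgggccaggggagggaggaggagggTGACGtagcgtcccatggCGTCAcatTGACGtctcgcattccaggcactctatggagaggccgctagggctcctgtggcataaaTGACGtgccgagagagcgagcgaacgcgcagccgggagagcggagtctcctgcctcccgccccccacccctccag
The NR4A3 promoter held 4 half-elements, which begin at positions -109, -91, -83 and -25, counting the start base as 0. Such a half-element occurs in 24.5% of the 34789 promoters of the table, and 4 or more occur in 0.316%. The NR4A1 window held none, and neither window held AGGTCA. A match is a run of letters, not a shown binding site.

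At the NR4A genes few peaks were lost, and few losses were predicted from peak area. Of 17 vehicle peaks, 1 was lost in the EZH2i list (5.882%, 1.046 to 26.98), 2 in the CBPi list (11.76%, 3.288 to 34.34) and 2 in the FSK list (11.76%). Areas alone predicted 2.95, 2.30 and 2.34 lost peaks, and the 3 intervals contain these. Over all vehicle peaks the lost shares were 37.7%, 30.6% and 30.2%. All 4 NR4A start-site peaks stood in every list. Gained peaks numbered 1 of 15 in the EZH2i list (6.667%), 1 of 13 in the CBPi list (7.692%) and 3 of 18 in the FSK list (16.67%). The shares over all peaks of those lists were 6.98%, 10.7% and 15.9%.

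NR4A1 encodes NUR77, an orphan receptor that acts without a known hormone. It had 8 peaks in each treated list and 9 in the vehicle list. Of the vehicle peaks, 8 were in all lists, among them both start-site peaks and the largest, chr12:52050168-52053034 inside the gene, whose area of 5581 was exceeded by 2.065% of vehicle peaks. A neighbour at chr12:52055051-52055702 (vehicle area 718.0) was missing only from the FSK list. The FSK list had a gained peak at chr12:52060288-52060824, 917 bp beyond the gene end, which neither inhibitor list held. The EZH2i and CBPi lists lost and gained no peak at NR4A1.

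NR4A2 encodes NURR1, which shares the NR4A binding element. Its peak at the gene end, chr2:156331806-156336019, had an area of 11360 in the vehicle list, and only 0.05245% of that list was larger. It stayed among the largest of each treated list, with 0.4624% of peaks larger in the EZH2i list, 0.3986% in the CBPi list and 0.09590% in the FSK list. A second large peak, chr2:156340910-156343593 outside the gene (area 9213), was also in every list. The losses were at smaller peaks. The peak at chr2:156338400-156338944 (area 384.4) was missing from all treated lists, and a distant one at chr2:156254518-156255112 (area 666.0) was missing from the CBPi list only.

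NR4A3 encodes NOR1. Its 4 vehicle peaks stood side by side around the start, with gaps of 241, 104 and 110 bp, and none was lost in any list. In the CBPi list a single peak of 6067 bp covered all 4, and its area of 15490 was exceeded by 0.006361% of that list. In the EZH2i list a peak of 5343 bp covered 3 of them (area 12100, 0.01217% of the list larger). The FSK list held 4 peaks there, as the vehicle list did. Counts of peaks per gene therefore depend on how the caller split a region. A small peak about 43 kb before the start, at chr9:99778385-99778602 in the EZH2i list, was in all 3 treated lists and not in the vehicle list. Its area was 246.7 in the EZH2i list, 366.3 in the CBPi list and 483.8 in the FSK list. A further gained peak, chr9:99873479-99874168, lay 6789 bp beyond the gene in the FSK list only, and was among the 3 gained receptor peaks of largest area there (602.3).

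**Figure D3:**
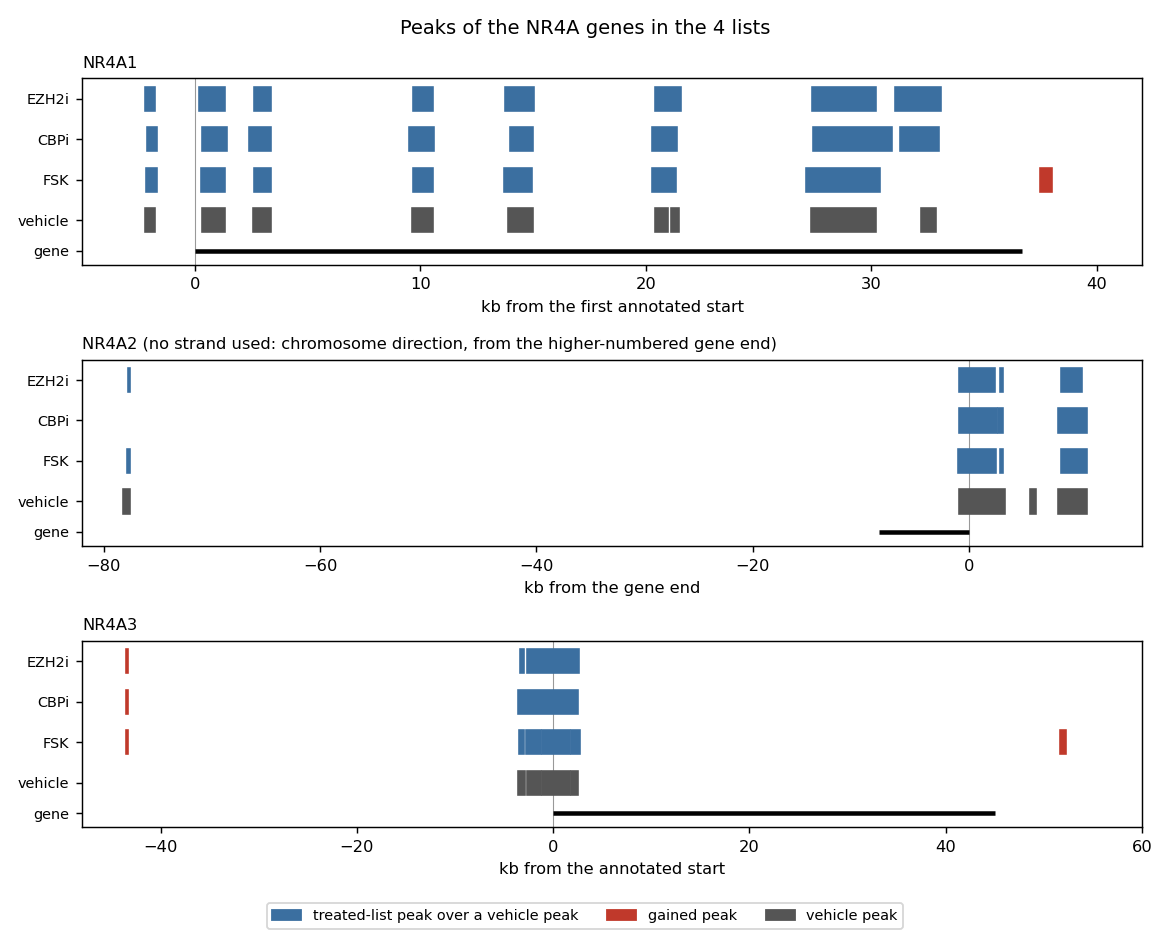
Peaks of NR4A1, NR4A2 and NR4A3 in the EZH2i, CBPi, FSK and vehicle lists, drawn to scale in kb from the start (for NR4A2, from the higher-numbered gene end), with the gene as a black line. Vehicle peaks are grey, treated-list peaks over a vehicle peak blue and gained peaks red; the start-site blocks are present in all 4 lists, and the gained peaks are the one before NR4A3 in each treated list and those beyond NR4A1 and NR4A3 in the FSK list.

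For the corticosteroid receptors a promoter overlapped by a peak of every list is shown, because both genes kept their start-site peaks in each. NR3C1 is at chr5:143404187-143404486 and NR3C2 at chr4:148445273-148445572, both on the - strand.
NR3C1: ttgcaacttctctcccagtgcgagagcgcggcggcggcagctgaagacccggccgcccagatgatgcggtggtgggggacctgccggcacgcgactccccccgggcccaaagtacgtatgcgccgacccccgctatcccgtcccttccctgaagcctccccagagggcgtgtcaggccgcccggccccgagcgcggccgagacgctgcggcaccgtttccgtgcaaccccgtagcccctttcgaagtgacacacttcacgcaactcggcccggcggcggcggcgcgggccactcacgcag
NR3C2: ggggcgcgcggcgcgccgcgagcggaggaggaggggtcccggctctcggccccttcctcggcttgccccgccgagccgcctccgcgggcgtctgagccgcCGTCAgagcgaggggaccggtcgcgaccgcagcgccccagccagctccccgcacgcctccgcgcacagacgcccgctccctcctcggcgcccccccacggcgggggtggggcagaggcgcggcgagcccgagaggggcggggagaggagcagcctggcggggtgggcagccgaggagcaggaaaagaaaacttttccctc
Their GC content was 71.7% and 78.0%. The NR3C2 window held 1 half-element, which begins at position -150, and the NR3C1 window held none. These windows are 1 of 7 annotated promoters of NR3C1 and 1 of 4 of NR3C2. TGACG was in 3 of the 7 and in 3 of the 4.

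At the steroid hormone receptor genes, as over all peaks, most losses were away from the start sites. Of 35 vehicle peaks, 17 were lost in the EZH2i list (48.57%, 32.99 to 64.43), 14 in the CBPi list (40.00%, 25.55 to 56.43) and 17 in the FSK list (48.57%). Areas predicted 14.4, 11.8 and 11.6. Inside the genes 13, 11 and 14 of 24 peaks were lost in those lists, whereas at start sites 1, 0 and 1 of 7 were lost. The excess lay at NR3C2. Without it, as chosen after its values were seen, 9 of 21 peaks were lost in the EZH2i list with 8.60 expected, 7 in the CBPi list with 7.10 expected and 7 in the FSK list with 7.05 expected. Gained peaks numbered 0 of 18 in the EZH2i list, 7 of 29 in the CBPi list (24.14%, 12.22 to 42.11) and 9 of 27 in the FSK list (33.33%, 18.64 to 52.18). Both of these intervals lie above the shares of all peaks, 10.7% for CBPi and 15.9% for FSK. Without NR3C2 the CBPi interval still did, with 5 of 19 gained (11.81 to 48.79), and the FSK interval did not, with 6 of 20 gained (14.55 to 51.90). The FSK interval also included its all-peak share with a flank of 10 kb (23.81%, 10.63 to 45.09), with summits inside the gene only (22.22%, 9.001 to 45.21) and with lists of equal length (26.32%, 11.81 to 48.79, against 19.79% of all peaks). With lists of equal length the CBPi interval included its own as well (26.09%, 12.55 to 46.47, against 18.05%). With only the larger-area 50% of each list, 0 peaks of these genes were gained in either.

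NR3C2 encodes the mineralocorticoid receptor, which binds aldosterone and cortisol. It had 6 peaks in the EZH2i list, 10 in the CBPi list, 7 in the FSK list and 14 in the vehicle list. Lost peaks numbered 8 in the EZH2i list (5.77 expected), 7 in the CBPi list (4.69 expected) and 10 in the FSK list (4.54 expected). That last was the largest excess of any receptor gene in the FSK comparison. The rest of the window reaching 1 Mb to each side, also chosen after the values were seen, held 32 vehicle peaks. Of these, the EZH2i list lacked 10 (31.25%, 40.57% expected), the CBPi list 11 (34.38%, 32.85% expected) and the FSK list 7 (21.88%, 32.33% expected). Both start-site peaks, chr4:148441537-148443185 (area 6362) and chr4:148443845-148446308 (area 6825), were in every list. The largest receptor peak lost in the FSK list was an NR3C2 peak, chr4:148249714-148250605 (area 1095), which both inhibitor lists kept. The FSK list gained 3 small peaks at NR3C2, with areas of 287.0, 226.3 and 281.8, and the CBPi list gained 2.

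NR3C1 encodes the glucocorticoid receptor. All 3 of its vehicle peaks were in every list, including the start-site peak chr5:143402501-143405927 (area 9640, with 0.1606% of the vehicle list larger). The FSK list alone held 3 more, all upstream of the gene. They stood at chr5:143436953-143437189, chr5:143456997-143457487 and chr5:143494251-143494610, with summits 1556, 21835 and 58816 bp before the first start and areas of 295.6, 365.4 and 396.9. NR3C1 was thus the only steroid receptor gene that gained peaks in the FSK list and lost none there; NR4A3, RXRA, VDR, NR1H4, NR2C2 and NR2F1 outside that family did the same.

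PGR, the progesterone receptor gene, kept 1 of its 4 vehicle peaks in the EZH2i and CBPi lists, the start-site peak chr11:101126704-101129976 (area 7377). The FSK list kept 2 of the 4 and gained 2. PGR thus lost 3, 3 and 2 peaks in the EZH2i, CBPi and FSK lists, with 2.11, 1.74 and 1.70 expected. ESR1, which encodes estrogen receptor alpha, lost 4 of 7 peaks in the EZH2i list, 2 in the CBPi list and 3 in the FSK list, with 3.64, 3.02 and 3.00 expected. Its largest peak, chr6:151763423-151764776 inside the gene (area 3448), was in every list. ESR2, the gene of estrogen receptor beta, lost 2 of 7 peaks in each treated list, with 2.69, 2.23 and 2.23 expected, and kept both start-site peaks. It gained 3 peaks in the CBPi list, all inside the gene and with areas of 202.9, 207.8 and 233.7, and at least 92.56% of the CBPi list was larger than each.

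**Figure D4:**
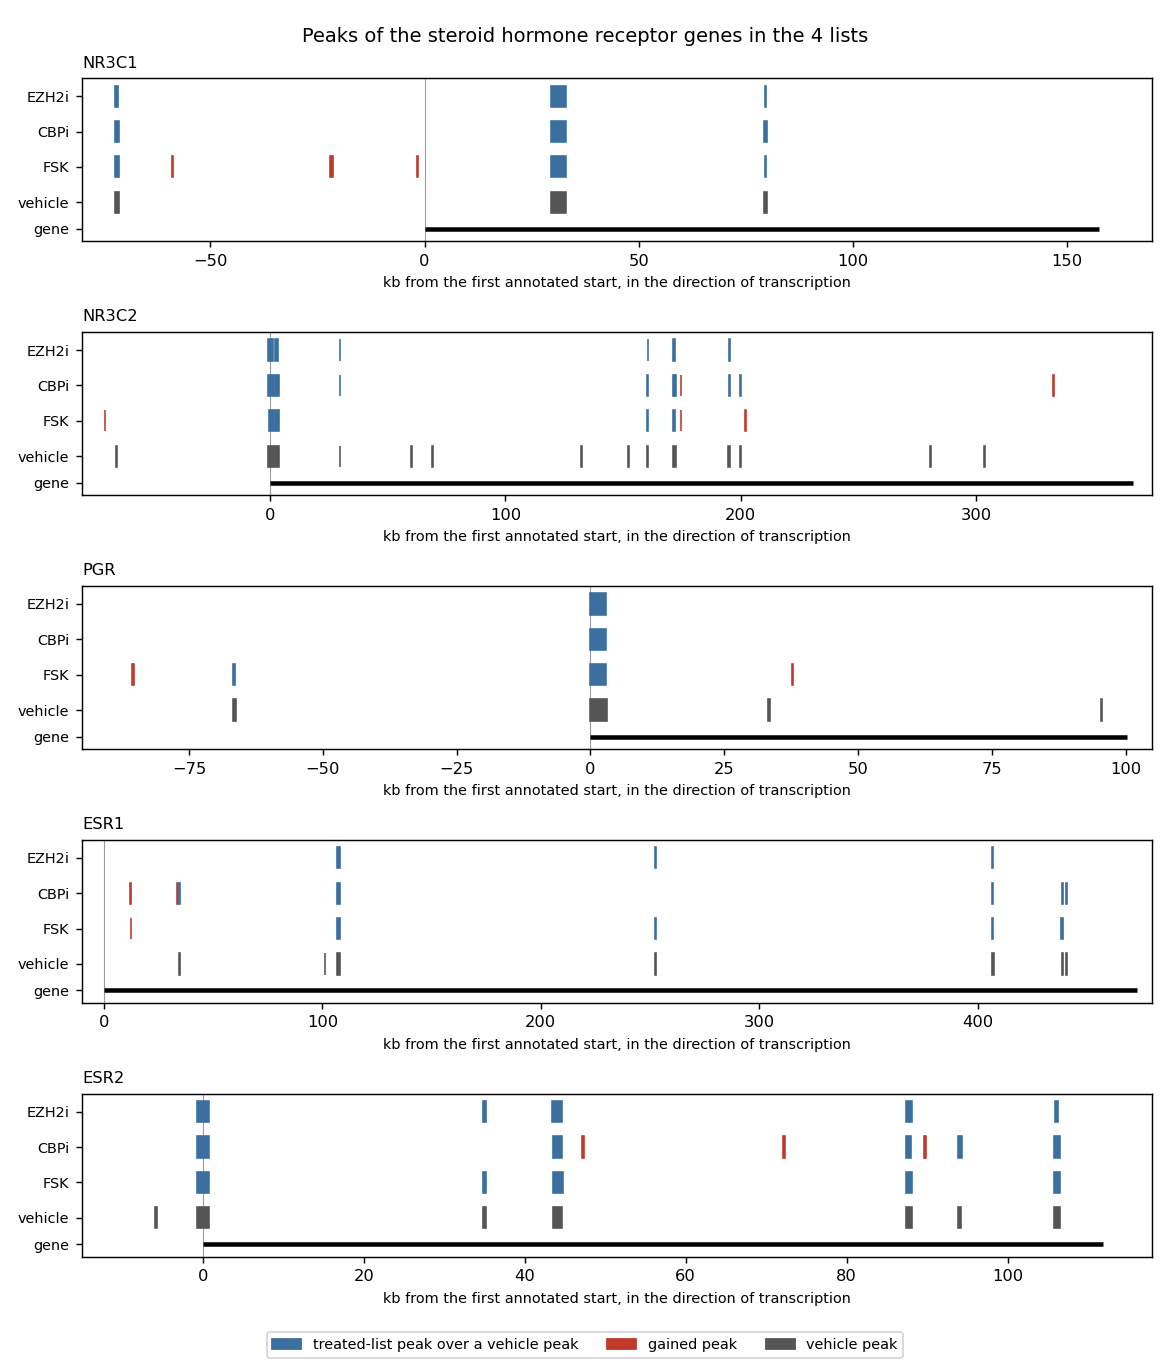
Peaks of NR3C1, NR3C2, PGR, ESR1 and ESR2 in the EZH2i, CBPi, FSK and vehicle lists, drawn to scale in kb from the first annotated start in the direction of transcription. Vehicle peaks are grey, treated-list peaks over a vehicle peak blue and gained peaks red; NR3C2 shows 14 vehicle peaks of which 4 are kept in the FSK list, and NR3C1 shows 3 red peaks upstream in the FSK list only.

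Start-site peaks differed between lists at few receptor genes. They were present at 35 of 43 genes in the EZH2i list, 37 in the CBPi list, 36 in the FSK list and 37 in the vehicle list. At 33 genes all 4 lists had one, and at NR1H4, NR1I2, NR1I3, RORA and HNF4A no list had. That definition uses annotated starts, and RORA and NR1H4 each had 1, which lay inside the gene. At their upstream gene ends, the EZH2i list held chr15:61228573-61229848 for RORA and chr12:100473518-100474113 for NR1H4. The summits of both lay outside the genes, by 119 and 13 bp, and a peak of every other list overlapped each. Of the 37 genes with a vehicle start-site peak, 3 lost it in the EZH2i list (ESR1, PPARA and NR0B2), against 3.30% of all genes with one. In the CBPi list 1 did (NR0B2), against 1.64% of all genes, and in the FSK list 2 did (ESR1 and ESRRB), against 3.61%. Of the 6 genes without one, NR2E3 gained it in each treated list, where 2.06% of all such genes did in the EZH2i list, 3.91% in the CBPi list and 2.82% in the FSK list. The NR0B2 peak had its summit inside the neighbouring gene NUDC. The shares of all genes rest on the 15812 genes with an annotated start. The receptor counts also hold 5 genes without one, NR0B2 among them, for which either gene end stood for the start.

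The promoters of 4 genes whose start-site peak changed are shown, without NR0B2, so that their base composition can be set beside the peaks. They are chr6:151690277-151690576 for ESR1, chr14:76375887-76376186 for ESRRB, chr15:71810304-71810603 for NR2E3 and chr22:46150276-46150575 for PPARA, all on the + strand.
ESR1: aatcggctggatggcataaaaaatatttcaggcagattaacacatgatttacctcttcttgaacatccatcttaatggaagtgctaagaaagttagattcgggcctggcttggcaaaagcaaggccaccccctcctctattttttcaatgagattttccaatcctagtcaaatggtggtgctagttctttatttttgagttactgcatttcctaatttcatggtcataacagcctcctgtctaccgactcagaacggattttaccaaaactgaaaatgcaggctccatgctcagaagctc
ESRRB: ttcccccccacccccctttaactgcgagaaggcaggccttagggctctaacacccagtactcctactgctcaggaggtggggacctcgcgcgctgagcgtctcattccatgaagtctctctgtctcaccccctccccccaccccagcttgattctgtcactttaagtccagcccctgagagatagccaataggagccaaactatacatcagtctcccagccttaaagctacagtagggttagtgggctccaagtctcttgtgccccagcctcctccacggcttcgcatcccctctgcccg
NR2E3: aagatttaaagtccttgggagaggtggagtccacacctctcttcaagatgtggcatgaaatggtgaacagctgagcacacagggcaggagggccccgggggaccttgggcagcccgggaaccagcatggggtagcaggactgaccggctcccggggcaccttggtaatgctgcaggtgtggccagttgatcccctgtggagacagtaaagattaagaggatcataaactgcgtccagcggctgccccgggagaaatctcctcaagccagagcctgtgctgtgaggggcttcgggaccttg
PPARA: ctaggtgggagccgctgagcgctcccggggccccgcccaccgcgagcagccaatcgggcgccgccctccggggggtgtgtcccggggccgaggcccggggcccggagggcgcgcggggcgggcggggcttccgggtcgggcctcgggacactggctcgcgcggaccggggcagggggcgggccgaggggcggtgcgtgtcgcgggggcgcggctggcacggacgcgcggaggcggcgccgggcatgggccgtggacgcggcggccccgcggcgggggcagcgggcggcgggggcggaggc
None of these windows held TGACG or AGGTCA on either strand. The ESR1 window is 1 of 6 annotated promoters of that gene, and TGACG was in 1 of the 6. GC content was 41.0% for ESR1, 58.0% for ESRRB, 58.7% for NR2E3 and 85.7% for PPARA. The ESR1 window was covered by a peak of the CBPi list only (chr6:151689961-151690756, area 438.1), while the vehicle start-site peak stood farther in, at chr6:151691133-151691440 (area 312.9). The ESRRB peak, chr14:76376042-76376343, had a vehicle area of 212.6, with 96.80% of the vehicle list larger. The PPARA peak, chr22:46149974-46150598, had a vehicle area of 370.8, with 69.62% of the list larger. NR2E3, which encodes a receptor of photoreceptor development, had 2 gained peaks over its start region in the EZH2i and FSK lists and 1 in the CBPi list, with areas between 212.0 and 533.4. These vehicle and gained peaks were all below the median area of their own list.

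The estrogen-related receptors are orphan receptors that regulate genes of energy metabolism. Their 32 vehicle peaks lost 16 members in the EZH2i list, 13 in the CBPi list and 14 in the FSK list, with 13.9, 11.5 and 11.4 expected. ESRRG, the receptor gene with the most vehicle peaks, held 26 of them and lost 14, 11 and 10 in those lists, with 11.2, 9.35 and 9.25 expected. ESRRG gained no peak in the inhibitor lists and 3 in the FSK list, the largest at chr1:217176882-217177459 (area 607.2). ESRRB lost 4 of 5 peaks in the FSK list, with 2.11 expected, against 2 in each inhibitor list. One of the 4, chr14:76473406-76474286 (area 998.3), was kept by both inhibitor lists. The single ESRRA peak was in every list.

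Retinoid receptors bind all-trans retinoic acid (RARA, RARB and RARG) or pair with other nuclear receptors (RXRA, RXRB and RXRG). Of their 46 vehicle peaks, 15 were lost in the EZH2i list, 11 in the CBPi list and 7 in the FSK list, with 15.1, 12.3 and 12.2 expected. RXRA, the common partner of the RARs, the thyroid hormone and vitamin D receptors, the PPARs and the LXRs, kept all 10 vehicle peaks in every list, where areas predicted losses of 3.16, 2.57 and 2.57. Its gained peaks numbered 18 in the EZH2i list, 5 in the CBPi list and 7 in the FSK list, none of them at the start site. Of the 18, 14 lay inside the gene and 14 were in neither of the other treated lists. They were broad for gained peaks and low for their width. Their median width was 1040 bp and their median area per bp 0.305, against 537.0 bp and 0.561 for all gained EZH2i peaks, and against 1.18 per bp for EZH2i peaks that covered a vehicle peak. The RXRA peaks that covered a vehicle peak in that list were broad as well, with a median of 1268 bp and 0.863 per bp. Gained RXRA peaks of the other lists had a like shape, at 881.0 bp and 0.357 per bp in the CBPi list (all gained peaks 400.0 bp and 0.787) and 720.0 bp and 0.364 per bp in the FSK list (all gained peaks 362.0 bp and 0.912). The area of the largest gained RXRA peak of the EZH2i list was 437.8, and 60.4% of the EZH2i list was larger.

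Gained peaks were also frequent around RXRA. Within 1 Mb of the gene, leaving out its own peaks, gained peaks made up 36 of 90 in the EZH2i list (40.00%), 19 of 75 in the CBPi list (25.33%) and 19 of 70 in the FSK list (27.14%). The shares over all peaks of those lists were those given above, 6.98%, 10.7% and 15.9%. Vehicle peaks of the same window, again without those of RXRA, were also lost less often than areas predicted. The EZH2i list lacked 12 of 65 (18.46%, 33.98% expected), the CBPi list 9 (13.85%, 27.49% expected) and the FSK list 14 (21.54%, 27.21% expected). This window was chosen after the RXRA values were seen, and the part of the surrounding region in the RXRA counts was not tested.

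**Figure D5:**
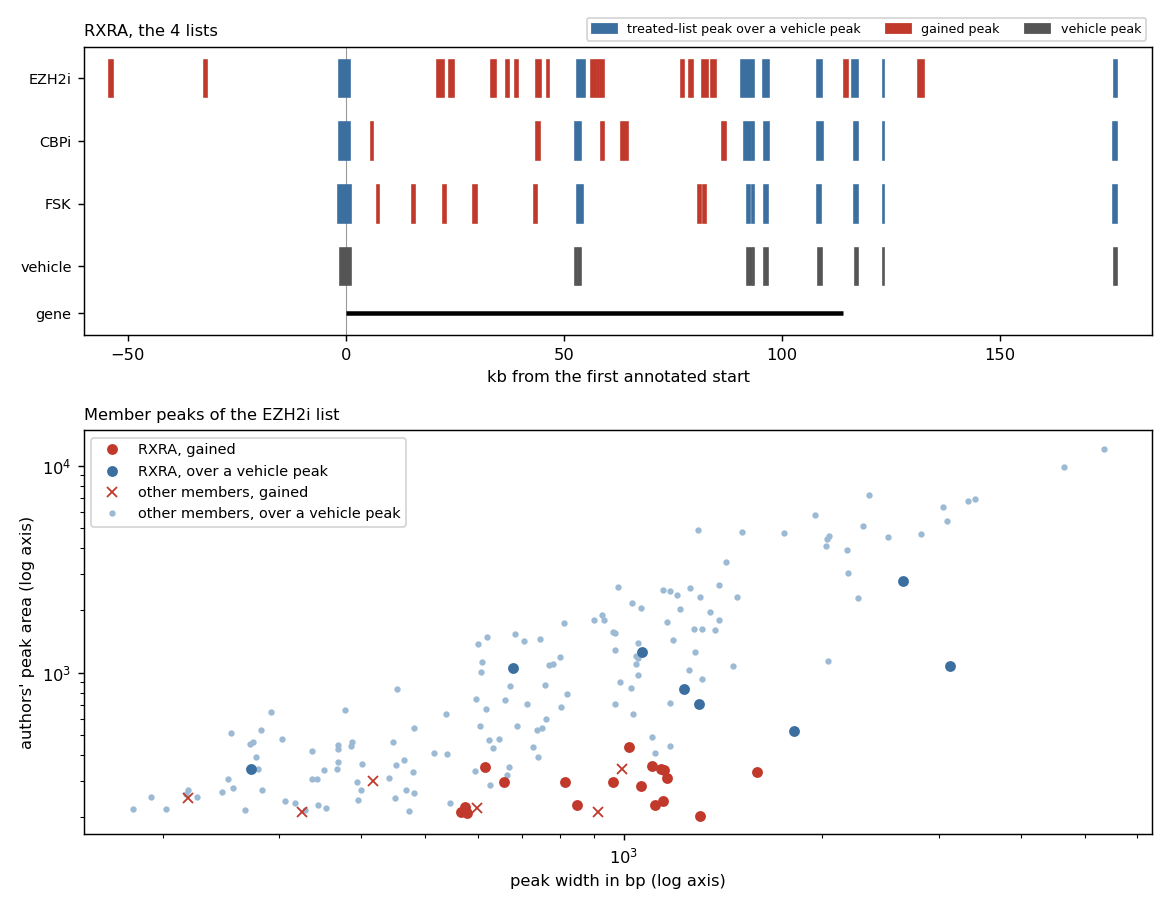
Upper panel: peaks of RXRA in the EZH2i, CBPi, FSK and vehicle lists, in kb from the first annotated start, with gained peaks in red. Lower panel: width against the authors' area, both on log axes, for receptor peaks of the EZH2i list; the 18 gained RXRA peaks (red points) lie low for their width, with areas of 203.4 to 437.8.

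RARB, a retinoic acid receptor gene that retinoids themselves induce, lost 14 of 22 peaks in the EZH2i list (8.60 expected), 10 in the CBPi list (7.09 expected) and 6 in the FSK list (7.02 expected). Its excess in the EZH2i list was the largest of any receptor gene. The largest receptor peak lost in that list was chr3:25380975-25381776 inside RARB (area 1537), which the CBPi and FSK lists kept. RARA, RARG and RXRB lost no peak in any list, and RXRG lost 1 of 6 in each. RARA gained chr17:40322039-40322784 in the CBPi list (area 626.0), the gained receptor peak of largest area there.

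THRB, the gene of thyroid hormone receptor beta, lost 12 of 23 peaks in the EZH2i list (8.26 expected), 11 in the CBPi list (6.59 expected) and 7 in the FSK list (6.46 expected). Its excess was the largest of the receptor genes in the CBPi list. Among the losses were chr3:24389123-24390445 (area 1192), missing only from the EZH2i list, and chr3:24137810-24138690 (area 1170), missing only from the CBPi list. The FSK list gained 4 peaks at THRB, which neither inhibitor list held, and the inhibitor lists gained none. THRA lost 2 of 4 peaks in the FSK list and none in the inhibitor lists. VDR, the vitamin D receptor gene, lost 2 of 5 peaks in the EZH2i list, 1 in the CBPi list and none in the FSK list, which gained 2.

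THRB and RARB adjoin each other on chromosome 3, with NR1D2 beside them, and their losses were read together. The 3 genes lost 29 of 50 vehicle peaks in the EZH2i list (58.00%, 35.11% expected), 22 in the CBPi list (44.00%, 28.37% expected) and 14 in the FSK list (28.00%, 28.01% expected). Peaks of the same window, chr3:23845286-25697932, that were not assigned to these 3 genes gave 11 of 17 lost in the EZH2i list (64.71%, 42.37% expected). The CBPi list lacked 9 of them (52.94%, 34.37% expected) and the FSK list 9 (52.94%, 34.15% expected). At the related trio THRA, NR1D1 and RARA on chromosome 17, 1 of 10 vehicle peaks was lost in the EZH2i list, 0 in the CBPi list and 2 in the FSK list, with 3.80, 3.08 and 3.00 expected. Other peaks of that window lost 3, 1 and 1 of 16 in those lists, with 5.48, 4.37 and 4.32 expected. These windows were chosen after the values were seen, and neighbouring peaks are not independent.

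PPARA encodes the fatty acid receptor that drives fatty acid oxidation. All 3 of its vehicle peaks, with areas of 370.8, 348.8 and 290.8, were missing from the EZH2i list (2.11 expected), while the CBPi list kept 3 and the FSK list 2. PPARG, the adipocyte receptor gene, gained a peak at chr3:12405739-12406195 in the FSK list (area 609.7), the gained receptor peak of largest area there, and the CBPi list had a gained peak at the same place. PPARD lost 1 of 2 peaks in the EZH2i list, none in the CBPi list and 1 in the FSK list. The sterol, bile acid and xenobiotic receptors (NR1H2, NR1H3, NR1H4, NR1I2, NR1I3 and NR0B2) had 9 vehicle peaks. Of these, 4 were lost in the EZH2i list, 3 in the CBPi list and 2 in the FSK list. Areas predicted 3.98, 3.31 and 3.30. NR1H2, which encodes the oxysterol receptor LXR beta, kept its single peak and gained 1 in the EZH2i list, inside the gene (area 221.4). NR1H3, the gene of LXR alpha, and NR1I2, which encodes the xenobiotic receptor PXR, each lost 1 of 2 peaks in every treated list. NR1H4, the bile acid receptor gene FXR, had 2 peaks in the EZH2i list, 3 in the CBPi list, 5 in the FSK list and 4 in the vehicle list.

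The ROR and REV-ERB receptors set the circadian clock by activating and repressing the same target genes. Their 36 vehicle peaks lost 15 members in the EZH2i list, 7 in the CBPi list and 9 in the FSK list, with 13.6, 11.1 and 11.0 expected. RORA lost 7, 4 and 4 of its 19 peaks, with 8.64, 7.04 and 6.95 expected, and gained none in any list. RORB kept one of the largest peaks of each list at its start, chr9:74496530-74501201 (vehicle area 12280, with 0.02786% of the vehicle list larger), and lost 4 of 9 peaks in the EZH2i list, 2 in the CBPi list and 4 in the FSK list. NR1D2, a REV-ERB gene, lost 3 of 5 peaks in the EZH2i list with 0.702 expected, against 1 in each other list. Of the 3, chr3:23994290-23994926 (area 786.5) was missing from every treated list. NR1D1, the other REV-ERB gene, lost 1 of 3 peaks in the EZH2i list and none in the other lists.

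HNF4A and HNF4G, receptors of liver and gut, had 7 vehicle peaks. Of these, 4 were lost in the EZH2i list, 3 in the CBPi list and 3 in the FSK list. Areas predicted 3.77, 3.14 and 3.10. Both HNF4A peaks, with areas of 252.7 and 324.8, were missing from the EZH2i and FSK lists. The NR2C, NR2E, NR2F and NR6A1 orphan receptors had 39 vehicle peaks, of which 13, 10 and 10 were lost, with 11.6, 9.31 and 9.14 expected. The start-site peak of NR2F2, the gene of COUP-TFII, spanned 7748 bp in the vehicle list, and its area of 16300 was exceeded by 0.003278% of that list. It was covered by 4 peaks in the EZH2i list, 1 of 7904 bp in the CBPi list and 3 in the FSK list. NR2F2 lost 6 of its 12 peaks in the EZH2i list, 5 in the CBPi list and 3 in the FSK list, with 4.21, 3.40 and 3.38 expected. One of them, chr15:96414739-96415708 (area 938.7), was missing from both inhibitor lists and kept by the FSK list. NR6A1, germ cell nuclear factor, lost 6 of 16 peaks in the EZH2i list, 3 in the CBPi list and 6 in the FSK list, among them chr9:124624295-124625451 (area 1001), which only the CBPi list kept. NR2C1, NR2C2, NR2E1 and NR2F6 lost no peak in any list. NR2F1, the gene of COUP-TFI, lost 1 of 4 peaks in the EZH2i list, 2 in the CBPi list and none in the FSK list.

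The receptor promoters were searched on both strands for short elements known for these factors. The table held 92 promoters of 38 receptor genes. TGACG was in 20 of the 92 (21.7%), against 24.5% of all promoters, and the full cAMP element TGACGTCA, which contains it, was in 2 (NR2E1 and NR6A1), against 1.84%. AGGTCA was in 14 (15.2%), against 13.8%. AAAGGTCA, the NR4A element, which contains AGGTCA, was in 4 (4.35%), against 1.22%, at ESR2, ESRRG, NR2E1 and PPARG. CAAGGTCA, the element bound by SF1 and also containing AGGTCA, was in none, against 1.29%, and the glucocorticoid-type palindrome was in none, against 0.391%. TGANTCA (AP-1) was in 4.35% against 7.69%, CTTTGA (TCF/LEF) in 8.70% against 12.9%, CCAAT in 35.9% against 34.6% and GGGCGG (GC box) in 51.1% against 44.9%. These counts describe letters in 300-base windows, in which several starts of 1 gene overlap.

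Other genes of nuclear receptor signalling were counted in the same way. The 22 coregulator genes, such as NCOA1, lost 44 of 108 vehicle peaks in the EZH2i list (40.74%, 37.07% expected), 34 in the CBPi list (31.48%, 30.06% expected) and 38 in the FSK list (35.19%, 29.58% expected). All 21 of their start-site peaks were kept. The 25 classic target genes lost 44 of 126 in the EZH2i list (34.92%, 39.50% expected) and 45 in the FSK list (35.71%, 32.09% expected). In the CBPi list they lost 30 (23.81%, 17.22 to 31.95), with 32.40% expected, above the interval. The share of all vehicle peaks missing from the CBPi list, 30.6%, lay inside that interval, and many such intervals were compared. The 14 start-site peaks of the target genes were all kept. The 20 genes of chaperones and ligand handling lost 21 of 52 in the EZH2i list (40.38%, 37.55% expected). They lost 14 in the CBPi list (26.92%, 30.35% expected) and 16 in the FSK list (30.77%, 29.91% expected). In the FSK list, gained peaks made up 23.91% of the peaks of the chaperone and ligand handling genes (11 of 46, 13.91 to 37.94), 14.63% of those of coregulators and 12.09% of those of target genes, against 15.9% of all FSK peaks. In the EZH2i list these shares were 3.333%, 3.077% and 3.614%, against 6.98% of all EZH2i peaks, and in the CBPi list 2.857%, 8.642% and 8.163%, against 10.7% of all CBPi peaks. FABP5, a fatty acid carrier, and CRABP2, a retinoic acid carrier, gained 3 of those 11 each. HSD11B2, the enzyme that inactivates cortisol, lost its start-site peak in both inhibitor lists. CYP27A1, a sterol hydroxylase, did so in the EZH2i list, FABP5 in the CBPi list and CRABP2 in the FSK list.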

How the data were processed

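ATAC-seq of NCI-H295R cells was deposited as 4 peak lists on hg38, 1 for each group of 2 libraries; each list was matched to its group by the treatment in its name. The submitters' processing notes name Bowtie2, Genrich, deepTools 2.0 and hg38, without roles or settings. The sources used here do not say how the 2 libraries were combined, which reads were filtered, whether Tn5 cuts were shifted or which threshold called a peak. Each peak carries a signal value computed by the authors, called its area here, which was at least 200.0. The deposited lists also hold a −log10 p for each peak, between 2.52 and 15.9 over all lists, and a score of at most 1000 set by the authors; the q column was not used. Read depth is unknown, and the 2 libraries of a group cannot be compared, so no p-value was computed.

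Peaks were assigned to genes with the RefSeq table of GRCh38.p14, in which 38 of 43 receptor genes had annotated starts; for the other 5 either gene end stood for the start. Exons and introns were not used. Lost and gained peaks were called by an overlap of 1 bp. The start window was 1 kb to each side, the flank 100 kb, and expected losses used 20 area bins. Python 3.11.15, numpy 2.4.6, pandas 2.3.3, scipy 1.17.1 and matplotlib 3.10.9 were used, and the counting was tested on simulated data. Named in the text are all NR4A and steroid hormone receptor genes, genes whose start-site peak differed, the 4 genes per treatment with the most losses above expectation and the 4 with the most gains, the 3 lost and 3 gained peaks of largest area per treatment, the 5 genes with the most vehicle peaks and genes without peaks; the remaining genes are named to account for all. The receptor genes and the lists were chosen with earlier results of these data known. Alternatives changed the overlap, the area threshold, the list length, the flank, the assignment and the start window.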

Additional observations from a re-analysis of the deposited data

How the results depend on the processing

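Of 174 alternative values, 126 moved by less than their counting interval or 1.5 times and 48 moved by more; a share or count of peaks has no sign that could turn. The CBPi loss of receptor peaks, below the share of all peaks in the report, was above it with the larger-area peaks and with lists of equal length. The FSK loss, also below that share in the report, was above it with the larger-area peaks and below it with lists of equal length. With only the larger-area 50% of each list, the EZH2i list lacked 9.774% of receptor peaks, the CBPi list 6.767% and the FSK list 6.015%, against 7.624%, 5.451% and 5.910% of all peaks; gained shares were 0, 0 and 4.098%, against 1.042%, 1.030% and 3.683% of all peaks. There the NR4A loss was 0 for EZH2i and the NR4A gains 0 for EZH2i and CBPi; steroid hormone receptor losses were 0, 0 and 6.667% for EZH2i, CBPi and FSK and gains 0 for CBPi and FSK; and 0 genes lost or gained a start-site peak in any list. With lists of equal length, losses were 20.90%, 19.21% and 19.77% in the EZH2i, CBPi and FSK lists, against 17.74%, 18.05% and 20.69% of all peaks. Gains were 19.23% for EZH2i and 22.46% for CBPi, against 16.65% and 18.05% of all peaks, the NR4A loss 0 and the steroid receptor loss 21.74% for EZH2i; 1 gene lost its start-site peak for EZH2i and 0 for FSK, and 3, 4 and 3 gained one. With summits inside the gene only, NR4A losses were 0 for EZH2i and CBPi and gains 0 in all lists; with a flank of 10 kb, NR4A gains were 0 for EZH2i and CBPi. Assignment to the nearest gene end gave a steroid receptor loss of 57.69% for CBPi. With a summit required inside the other list's peak, 3 genes gained a start-site peak for EZH2i and 3 for FSK; with an overlap of 50%, 0 did for CBPi. A start window of 2 kb gave 2 CBPi losses and one of 250 bp 1 FSK loss; counting any lost or gained peak in the window gave 2 losses and 3 gains for CBPi. Without RXRA, 3.846% were gained for EZH2i; the alternatives without RXRA and without NR3C2 were chosen after seeing the data. The causes were not tested. No paired analysis was possible because each group is 1 pooled list, and for the same reason no replicate could be left out. Unknown depth limits every lost and gained call.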
